A study of Mus musculus with 10 samples.

Results

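In mouse embryonic stem (ES) cells, TET2 ChIP-seq gave 2438 regions, of 79350 merged regions in all, that had a peak in every wild-type and FLAG-TET2 library and also in control libraries of both kinds, Tet2 knockout and untagged parental. They were chosen by their peaks. Peaks of 8 lists that shared at least 1 bp on the autosomes, X and Y were merged, and a region was kept if both wild-type lists, both FLAG-TET2 lists, at least 1 Tet2 knockout list and at least 1 parental list had a peak in it, unless all 8 lists did. These regions are called double-background regions here. They made up 20.4% of the 11942 regions in all 4 target lists.

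Wild-type cells (Tet2fl/fl, untagged) and Tet2 knockout cells (Tet2-/-) were immunoprecipitated with a rabbit polyclonal antibody raised to the N-terminus of TET2. FLAG-TET2 cells (Tet2fl/fl), in which TET2 made from its own locus carries a 2x-Flag tag, and untagged parental cells (Tet2fl/fl) were immunoprecipitated with FLAG M2 affinity gel. The medium of all cells held serum, LIF, the GSK-3 inhibitor CHIR99021 and the MEK1 inhibitor PD0325901. Cells were fixed with disuccinimidyl glutarate and then formaldehyde, and chromatin was sonicated. Each group had 2 libraries with 1 peak list each. The wild-type and FLAG-TET2 lists are called target lists, and the knockout and parental lists, whose cells lack Tet2 or the tag by their labels, control lists. The part of Tet2 that the knockout removes is not given in the sources used here. Whether replicates were separate cultures, or a line 1 clone, is not given in the labels, so the spread between replicates may be technical.

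TET2 is one of the enzymes that oxidise methylated cytosine in DNA, a step towards its removal. In ES cells promoters with many CpG dinucleotides are mostly free of methylation, open and often transcribed. ChIP-seq in cells without the target protein or without its tag is used to mark places where peaks arise without the target. The RefSeq gene spans and promoters used below are those of GRCm38.p6, the assembly behind mm10, the build of the peak lists.

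The promoters of 5 genes with such a region are shown, since many of the regions lay at promoters of this kind and since these hold the short motifs and the summit offsets described below. They were taken from the named regions after their values had been seen. Each runs from 250 bases before to 50 bases after the start site, 5′ to 3′ on the strand of the gene, and capitals mark CACGTG (an E box, the site of MYC, MAX and USF factors), GCATGCGC (a match to the site of NRF1, a factor of genes for mitochondrial proteins), GGGCGG (the box of SP and KLF factors), CCAAT and TATAAA boxes on either strand. Eif4g1 encodes the scaffold of the cap-binding complex (chr16:20672477-20672776, plus strand), Mtf2 a Polycomb accessory protein (chr5:108065424-108065723, plus strand), Polr2a the largest subunit of RNA polymerase II (chr11:69758584-69758883, minus strand), Apex1 an endonuclease of base excision repair (chr14:50924699-50924998, plus strand) and Mrpl9 a protein of the mitochondrial ribosome (chr3:94443086-94443385, plus strand).
Eif4g1: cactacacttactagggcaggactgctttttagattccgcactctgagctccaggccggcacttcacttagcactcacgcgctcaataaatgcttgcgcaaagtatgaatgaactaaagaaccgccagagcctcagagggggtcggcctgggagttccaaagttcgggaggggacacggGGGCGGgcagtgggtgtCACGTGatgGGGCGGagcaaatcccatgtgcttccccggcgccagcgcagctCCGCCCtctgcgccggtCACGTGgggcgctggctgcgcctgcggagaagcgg
Mtf2: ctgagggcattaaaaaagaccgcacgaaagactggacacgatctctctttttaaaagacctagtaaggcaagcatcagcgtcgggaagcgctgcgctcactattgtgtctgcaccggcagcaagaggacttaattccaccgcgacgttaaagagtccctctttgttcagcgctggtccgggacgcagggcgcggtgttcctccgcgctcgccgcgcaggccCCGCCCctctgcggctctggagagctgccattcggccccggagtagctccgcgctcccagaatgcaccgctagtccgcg
Polr2a: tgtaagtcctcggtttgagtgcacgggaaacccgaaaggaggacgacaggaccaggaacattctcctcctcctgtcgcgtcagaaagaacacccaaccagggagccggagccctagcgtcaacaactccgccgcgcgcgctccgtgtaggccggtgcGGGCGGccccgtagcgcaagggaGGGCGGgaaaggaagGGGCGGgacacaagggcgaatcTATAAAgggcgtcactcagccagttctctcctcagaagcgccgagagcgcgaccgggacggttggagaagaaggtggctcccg
Apex1: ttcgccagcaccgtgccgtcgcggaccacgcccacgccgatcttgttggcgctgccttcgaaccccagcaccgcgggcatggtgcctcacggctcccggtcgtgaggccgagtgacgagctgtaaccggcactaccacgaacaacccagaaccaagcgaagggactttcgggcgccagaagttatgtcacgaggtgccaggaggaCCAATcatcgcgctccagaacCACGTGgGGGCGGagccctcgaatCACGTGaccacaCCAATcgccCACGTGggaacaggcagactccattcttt
Mrpl9: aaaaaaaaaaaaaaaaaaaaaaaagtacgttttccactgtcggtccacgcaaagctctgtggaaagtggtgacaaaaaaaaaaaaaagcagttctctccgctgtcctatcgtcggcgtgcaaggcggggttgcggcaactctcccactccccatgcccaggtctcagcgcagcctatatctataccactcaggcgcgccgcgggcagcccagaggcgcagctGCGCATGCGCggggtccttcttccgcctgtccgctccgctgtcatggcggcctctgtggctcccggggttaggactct
The Eif4g1 promoter held 2 E boxes and 3 GGGCGG boxes, and the Apex1 promoter 3 E boxes. The Mrpl9 promoter held 2 overlapping matches to GCATGCGC, and the Polr2a promoter 3 GGGCGG boxes and 1 TATAAA box. The ratio of observed to expected CpG was 0.801 at Eif4g1, 1.09 at Mtf2, 0.995 at Polr2a, 1.04 at Apex1 and 0.972 at Mrpl9. The median over all 21263 promoters of the table was 0.567.

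Nearly all of these regions had a peak in knockout replicate 2 and in parental replicate 1, the longer list of each control group. Knockout replicate 2 had a peak in 2437 of the 2438 regions and knockout replicate 1 in 321 (13.2%). Parental replicate 1 had a peak in 2429 and parental replicate 2 in 1060 (43.5%). The rule left out the 253 regions in all 8 lists, which lowers the shares of knockout replicate 1 and parental replicate 2. The lists differed widely in length, with 38546 and 18826 peaks in wild-type, 2261 and 11702 in knockout, 63612 and 28258 in FLAG-TET2 and, for the parental cells, 36549 and 10132 in replicates 1 and 2. The sequencing depth behind them is unknown. The number of double-background regions rested on these lists, with 319 without knockout replicate 2, 1386 without knockout replicate 1 and 1057 without parental replicate 1.

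A few control patterns covered nearly all regions. A peak in knockout replicate 2 and parental replicate 1 alone was found in 1060 regions (43.5%). A peak in knockout replicate 2 and both parental lists was found in 1051 (43.1%), and one in both knockout lists and parental replicate 1 in 317 (13%). The other 10 regions were split among the remaining patterns. Next to the rule lay 951 regions with both kinds of background and a peak in 3 of the 4 target lists. FLAG-TET2 replicate 2 was the missing list in 568 of them, wild-type replicate 2 in 367, and wild-type replicate 1 and FLAG-TET2 replicate 1 in 8 each. The regions just outside the rule were therefore mostly without a peak in the shorter list of a target group.

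The regions were wide. Their median width was 990 bp (267 to 5979), and 434 bp for the 4521 regions with a peak in all target lists and in no control list, which are called common TET2 regions. The median for the 3854 regions with a parental but no knockout peak was 894 bp, and for the 876 regions with a knockout but no parental peak 532 bp. A region merges every peak that touches it, so a region with more lists has more chances to be wide.

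Most double-background regions lay at gene ends. Of the 2438, 1780 (73.0%, exact binomial 95% interval 71.2 to 74.8%) overlapped the 1 kb on either side of a protein-coding gene's first or last base, and 1443 (59.2%, 57.2 to 61.1%) covered a start site of the promoter table. In common TET2 regions the shares were 10.0% and 3.78%. The difference at gene ends was 63 percentage points (Newcombe 95% interval 61.0 to 64.9). It was 60.4 points when the wild-type replicate 1 summit was placed instead of the whole region, a choice made after the widths were seen. Regions are not replicates, so these intervals cover counting error only. The promoter table holds 17492 of the 21887 protein-coding genes, and the start-site shares are therefore lower bounds.

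Regions in all 8 lists and regions with a parental but no knockout peak had shares near that of the double-background regions, and those with a knockout but no parental peak had a much lower one. Of the regions with a parental but no knockout peak 64.9% lay at a gene end, a share that the double-background regions exceeded by 8.12 points (interval of the difference 5.78 to 10.4). The regions with a knockout but no parental peak were there in 18.3%, and the double-background regions exceeded them by 54.7 points (51.5 to 57.7). The 253 regions in all 8 lists were there in 80.6%, and the double-background regions differed from them by -7.62 points (-12.4 to -2.04). Gene-end shares also varied among the double-background regions, from 63.8% with background in knockout replicate 2 and parental replicate 1 alone to 81.0% where parental replicate 2 also had a peak and 78.9% where knockout replicate 1 did.

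**Figure D1:**
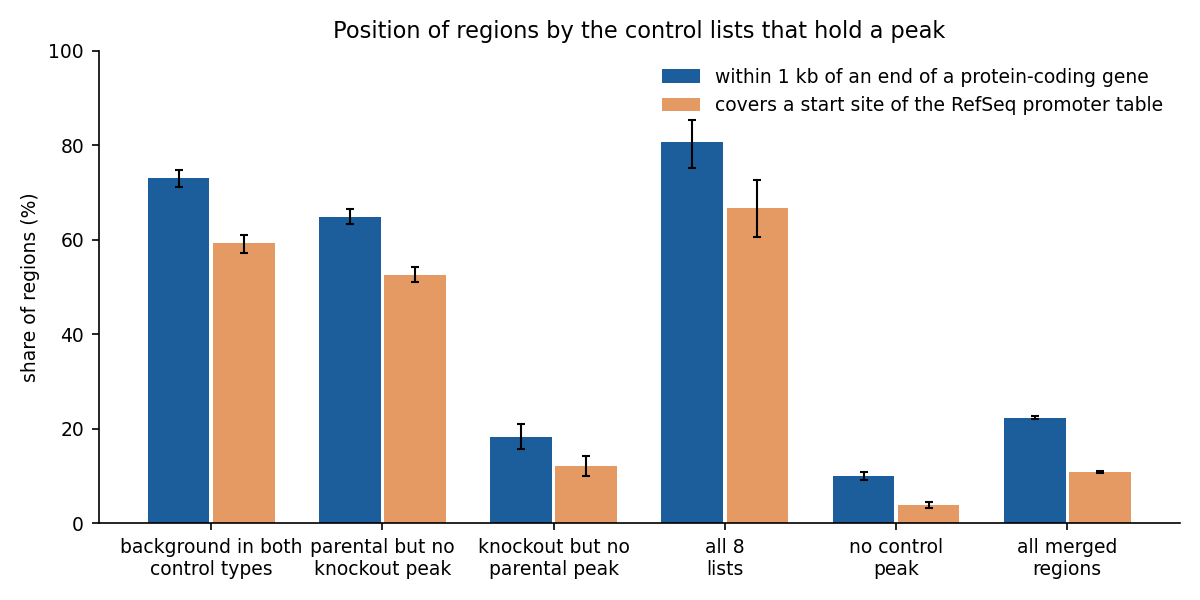
Share of regions (%, y axis) at a gene end, within 1 kb (blue), and covering a start site (orange), for 6 classes of regions (x axis); error bars are exact binomial 95% intervals. Double-background regions reached 73.0% and 59.2%, against 10.0% and 3.78% of regions with no control peak.

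The other double-background regions lay inside genes or between them. Within a gene span but over 1 kb from either end were 354 regions (14.5%), against 45.4% of common TET2 regions. Outside gene spans and over 1 kb from a gene end were 304 (12.5%), against 44.6%, and over 50 kb from any gene were 78 (3.20%), against 13.2%. Of the 1443 regions that covered a start site, 139 (9.63%) covered start sites on both strands.

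Within the regions, the place of the summit, the highest point of a peak, differed between reagents. Libraries of the TET2 antibody had their summits close together in wild-type and knockout cells, and those of the FLAG resin were farther apart between FLAG-TET2 and parental cells. The median distance between summits was 41.0 bp between wild-type replicates, 57.0 bp between wild-type replicate 1 and knockout replicate 2, and 24.0 bp between the knockout replicates (320 shared regions). It was 70.0 bp between FLAG-TET2 replicates, 73.0 bp between parental replicates, and 137 and 134 bp between FLAG-TET2 replicates 1 and 2 and parental replicate 1. Between the reagents it was 92.0 bp for wild-type and FLAG-TET2 replicate 1, and 225 bp for knockout replicate 2 and parental replicate 1. In common TET2 regions, which are narrower, wild-type and FLAG-TET2 replicate 1 summits were 25 bp apart.

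Over the pairs of libraries with at least 20 shared regions, the medians averaged 179 bp between reagents and 73.9 bp within a reagent. The difference was 106 bp. In the regions at most 700 bp wide this difference was 34.1 bp. It was 57.3 bp when each peak was reduced to a 200 bp window around its summit. Without knockout replicate 1 it was 44.9 bp and without parental replicate 2 65.6 bp. In each case the other of these libraries then held fewer than 20 regions and was dropped. The wild-type replicate 1 summit was nearer that of knockout replicate 2 than that of parental replicate 1 in 1792 of 2428 regions (73.8%, exact binomial interval 72.0 to 75.5%). The FLAG-TET2 replicate 1 summit was nearer that of wild-type replicate 1 than that of parental replicate 1 in 54.3% (52.3 to 56.3%). FLAG-TET2 summits were thus about as often near wild-type as near parental ones. The cells differ between the reagents as well, so reagent and cell line cannot be told apart.

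**Figure D2:**
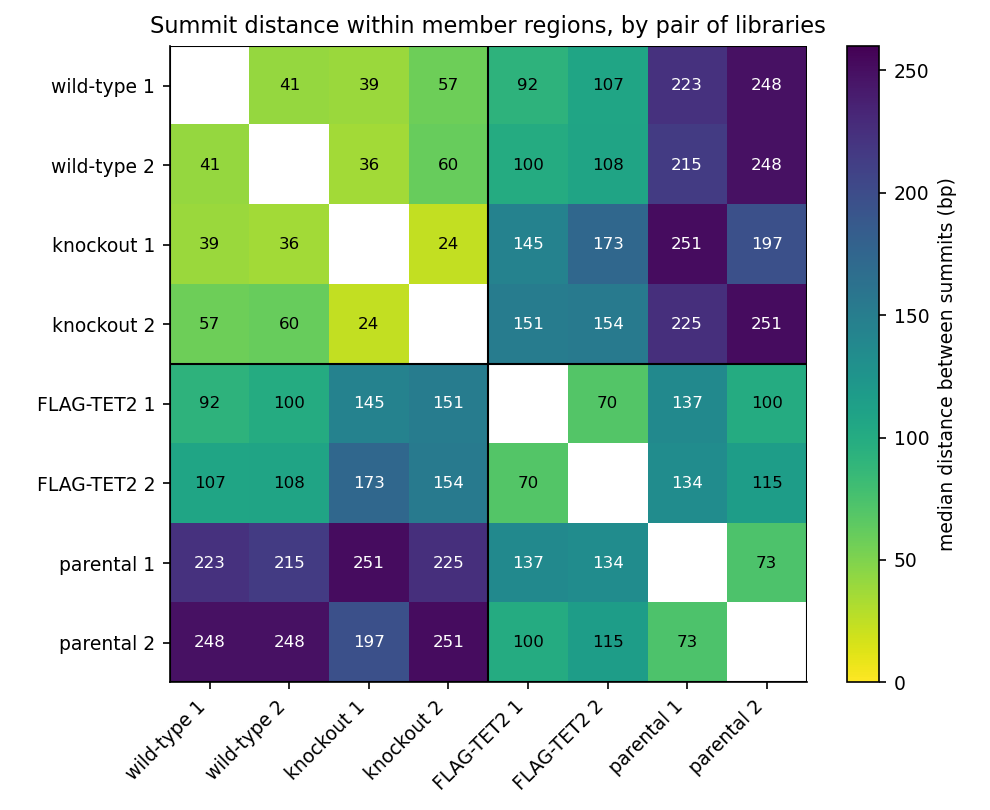
Median distance in bp between the summits of 2 libraries in double-background regions, as a colour and a number for each pair; rows and columns are the 8 libraries, with TET2 antibody libraries in the upper left block and FLAG resin libraries in the lower right. Distances within the TET2 antibody block run from 24.0 to 60.0 bp, and between knockout replicate 2 and the parental libraries they are 225 and 251 bp; knockout replicate 1 and parental replicate 2 share 3 regions.

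The offset had a direction. In the 1152 double-background regions that covered exactly 1 start site, TET2 antibody summits lay about on the start site and FLAG resin summits downstream of it, inside the gene. The median position was -17.0 and -22.0 bp in wild-type replicates 1 and 2 and -33.0 and -16.0 bp in knockout replicates 1 and 2 (170 regions for knockout replicate 1). It was 106 and 108 bp in FLAG-TET2 replicates and 168 and 187 bp in parental replicates (554 regions for parental replicate 2). The libraries of the reagents did not overlap. TET2 antibody libraries averaged -22.0 ± 7.79 bp and FLAG resin libraries 142 ± 41.7 bp (SD, n = 4 each), a difference of -164 bp. A two-sided exact permutation test over the 8 libraries gave p = 0.0286, the smallest that its 70 arrangements allow. It treats the libraries as exchangeable, though the FLAG-TET2 and the parental libraries each lay close together. Its p, here and below, therefore does not measure the spread between cell groups. With labels permuted only within a replicate number, p was 0.0556, the smallest that 36 exact arrangements allow. This test was chosen after the distances between summits had been seen.

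Between wild-type and knockout cells, and between FLAG-TET2 and parental cells, no difference in position passed the test, and the test had few libraries. Wild-type minus knockout was 5.00 bp (exact permutation p = 1.00, n = 2 each), and FLAG-TET2 minus parental was -71.0 bp (exact permutation p = 0.333, n = 2 each, the smallest p that 2 against 2 libraries allow). The parental replicate 1 summit was downstream of the knockout replicate 2 summit in 829 of 1148 regions (72.2%), and the FLAG-TET2 replicate 1 summit downstream of the wild-type replicate 1 summit in 761 (66.3%). The offset was not limited to double-background regions and was also found in the other regions with a parental peak. In 1606 regions with a parental but no knockout peak the medians were -15.0 and -16.0 bp in wild-type, 104 and 103 bp in FLAG-TET2 and 180 and 182 bp in parental replicates. The 253 regions in all 8 lists, which the rule left out, had the same order, with a difference between reagents of -206 bp in the 138 of them that covered 1 start site (exact permutation p = 0.0286, n = 4 each). Without a parental peak the shift of FLAG-TET2 was smaller. Of 97 regions with a knockout but no parental peak covering 1 start site, 46.4 and 50.5% had the FLAG-TET2 summits downstream. Wild-type summits were there in 46.4 and 42.3%. In 154 such common TET2 regions the shares were 46.1 and 43.5% against 32.5 and 36.4%. In double-background regions they were 70.1 and 70.3% against 44.8 and 44.0%. Both other classes were narrower, and a role of width was not tested. In the double-background regions, the difference between reagents was smaller under alternatives that narrow the regions and also change which regions are counted. It was -95.0 bp with 200 bp summit windows (exact permutation p = 0.0286, n = 4 each), and -55.1 bp in regions at most 700 bp wide (exact permutation p = 0.0857, n = 4 each), which missed the threshold of 0.05. It was -163 to -130 bp when 1 of the 4 control lists was left out, where 3 libraries on each side had enough regions and the exact permutation p of 0.100 was the smallest possible (n = 3 each).

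**Figure D3:**
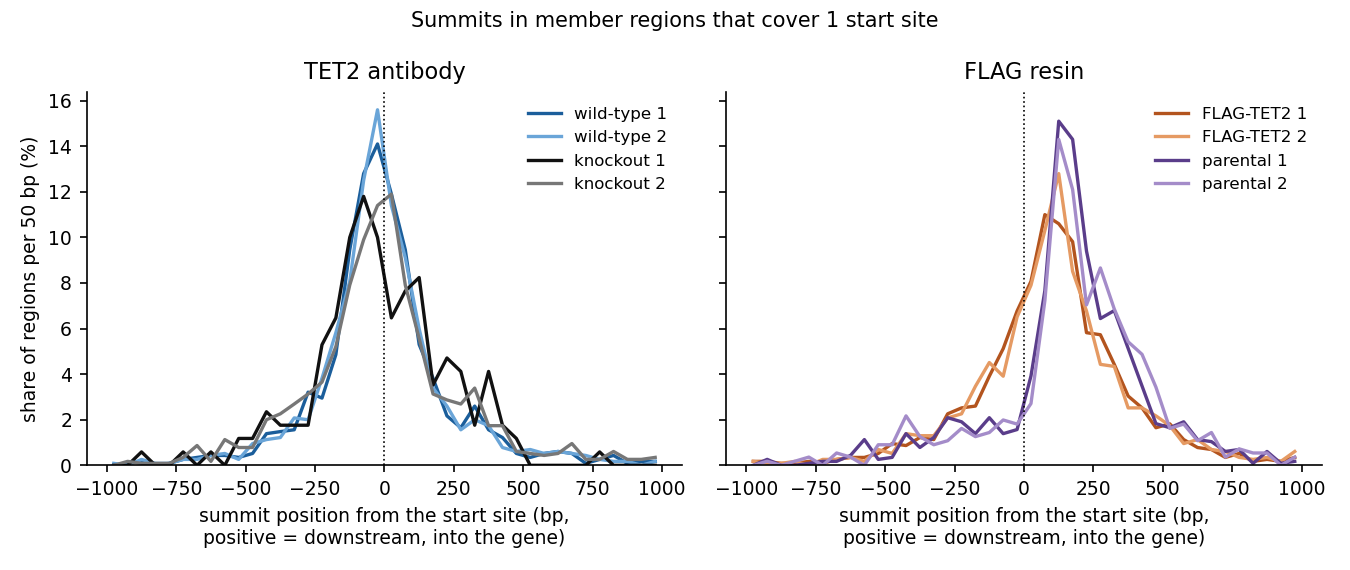
Share of regions per 50 bp (%, y axis) by summit position from the start site (bp, x axis; positive is downstream), for double-background regions that cover 1 start site; lines are libraries, TET2 antibody on the left and FLAG resin on the right. Wild-type and knockout summits centre near 0, and parental summits centre over 150 bp downstream, with FLAG-TET2 summits in between.

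The offsets varied among the printed promoters, which do not cover their full range. At Eif4g1, summits were 46.0 and 101 bp downstream of the start site in wild-type replicates 1 and 2 and 34 bp in knockout replicate 2. They were 408 and 461 bp downstream in FLAG-TET2, against 320 and 535 bp in parental replicates. The TET2 antibody and FLAG resin summits were therefore well apart there. At Mrpl9, summits were at -85.0 and -67.0 bp in wild-type and -39.0 bp in knockout replicate 2, and at 21.0 and 19.0 bp in FLAG-TET2 against 304 and 322 bp in parental replicates. At Mtf2, they were at -64.0 and -54.0 bp in wild-type and 25 bp in knockout replicate 2, and at 28.0 and 132 bp in FLAG-TET2 against 173 and 197 bp in parental replicates. Both genes had the parental summits farthest downstream. The region at Apex1 was shared with Osgep, and positions are from the Apex1 start site. The order did not hold there, with -202 and -137 bp in wild-type and 21.0 bp in knockout replicate 2. FLAG-TET2 summits were at -226 and -271 bp, against -232 and 129 bp in parental replicates.

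The promoters in double-background regions were rich in CpG. Of 1892 promoters that overlapped such a region, 1728 (91.3%, exact binomial interval 90 to 92.6%) had an observed to expected CpG ratio of at least 0.6, against 47.7% of all 21263 promoters and 63.4% of the 224 that overlapped a common TET2 region. Since CpG content brings other motifs with it, motifs were compared within the promoters past that ratio. All 7 motifs were searched as exact letters on both strands of the 300 base window.

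E boxes (CACGTG) were found in 17.0% of the 1728 CpG-rich promoters in double-background regions, against 11.4% of all 10137 CpG-rich promoters. Against 2353 CpG-rich promoters in regions with a parental but no knockout peak (10.3%), the difference was 6.69 points (Newcombe interval 4.55 to 8.87). GCATGCGC was found in 8.85%, against 6.50% there, a difference of 2.35 points (0.707 to 4.06), and CTCGCGAG in 4.69%, against 2.59%, a difference of 2.10 points (0.940 to 3.33). GGGCGG went the other way, with 74.1% against 78.2% and a difference of -4.12 points (-6.79 to -1.48). The intervals for CCAAT (-3.34 to 2.54 points), TTCCGG, the core of ETS factor sites (-5.44 to 0.511), and TATAAA (-0.391 to 2.29) included 0. The intervals were not adjusted for the 7 motifs, and all of the motifs but CCAAT and TATAAA hold a CpG themselves. In regions in all 8 lists E boxes were in 25.1% of 203 CpG-rich promoters, and in regions with a knockout but no parental peak in 16.0% of 100 (exact binomial interval 9.43 to 24.7%). Against the 142 CpG-rich promoters in common TET2 regions the E box difference was 6.45 points (0.0856 to 10.9), and the GCATGCGC difference was -1 points (-7.14 to 3.15), an interval that included 0.

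Distances from the summits to the motifs followed the summit positions. The window searched ends 50 bases downstream of the start site, and FLAG resin summits had their medians past that end and were farther from all 7 motifs. In the 311 pairs of a region and a promoter with an E box, the median distance from the summit to the nearest E box was 77.5 and 76.5 bp in wild-type replicates and 59.5 bp in knockout replicate 2. It was 194 and 198 bp in FLAG-TET2 replicates and 272 bp in parental replicate 1. For CCAAT the median distance was 144 and 148 bp in wild-type and 238 and 228 bp in FLAG-TET2 replicates. The knockout replicate 2 summit was within 50 bp of an E box in 45.7% of the pairs and of GGGCGG in 25.9% of its pairs. In wild-type replicates the same shares were close, with 34.7 and 37.9% for E boxes and 32.5 and 34.1% for GGGCGG. A match is a description of the sequence and was not tested as a binding site.

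Genes with a double-background region within 1 kb of their span numbered 2463 of 21887 protein-coding genes (11.3%). Of these, 2379 had 1 such region, 79 had 2, and 5 (Pigl, Aopep, Hlcs, Zfp978 and Pkm) had 3. Of the 319 genes in 16 lists, 91 (28.5%, exact binomial interval 23.6 to 33.8%) had one. Of the listed genes 189, and of all protein-coding genes 7389, had a region of any kind in all 4 target lists within 1 kb. Among these, 91 of 189 listed genes (48.1%, 40.8 to 55.5%) had a double-background region, against 33.3% of all such genes. The members and lists were chosen with results of these data known, so the shares are descriptions. The share of the listed genes with such a region was 0.940% without knockout replicate 2, below the 1.53% of all genes. It was 9.09% without knockout replicate 1, against 6.12% of all genes. It was 17.2% with peaks of a −log10 q of at least 5, against 5.96%, and 15.4% with 200 bp summit windows, against 6.57%. Since 2437 of the 2438 regions had a peak in knockout replicate 2, few were left without it. Without knockout replicate 1, the rule left out the 1051 regions with a peak in knockout replicate 2 and both parental lists. Those regions had 65 listed genes within 1 kb. The falls in the listed share without a knockout list therefore follow in part from the rule.

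In protein synthesis, 12 of 24 translation factors and tRNA synthetases had a double-background region, with Eif4g1, Eif4a1, the RNA helicase of the same complex, Eef2, an elongation factor, and the synthetases Aars, Kars, Mars1, Sars, Vars and Yars among them. Cytosolic ribosomal proteins gave 11 of 28, such as Rps18 and Rplp0, and mitochondrial ribosomal proteins 4 of 18. In RNA synthesis and processing, splicing factors gave 7 of 20, with U2af1 and U2af2, which recognise the end of the intron, Srsf1, Srsf2 and Hnrnpu, and RNA polymerase II with its general factors 3 of 20 (Polr2a, Gtf2a1 and Gtf2b). Proteasome subunits gave 3 of 19 (Psma3, Psma5 and Psmc2). The RNA polymerase II and proteasome lists, at 15.0% and 15.8%, were near the 11.3% of all genes. Exact binomial intervals of other lists also included 11.3%. They were 6.41 to 47.6% for mitochondrial ribosomal proteins, 6.05 to 45.6% for DNA methylation and 3.58 to 41.4% for immediate early genes. For formative and primed genes the interval was 0.141 to 27.3%, and for lineage factors 0 to 14.2%.

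In chromatin, core and variant histones gave 6 of 13, among them the linker histone H1f2 and the variant H2az1. The list of OGT, a partner of TET enzymes, and the SET1/COMPASS histone methyltransferases gave 6 of 14, namely Setd1a, Kmt2b, Wdr5, Ash2l, Dpy30 and Cxxc1, and not Ogt. Polycomb genes gave 7 of 19, among them Ezh2, the methyltransferase, Suz12 and Mtf2. The DNA methylation machinery gave 4 of 19, namely Uhrf1, a cofactor of maintenance methylation, Tet2, Apex1 and Idh1. Replication and cell cycle genes gave 8 of 24, among them Pcna, Mcm6 and the mitotic kinase Plk1, and p53 and stress genes 7 of 18, among them Cdkn1a, Hsf1 and the chaperones Hspa8, Hspd1 and Hspe1, the last pair in 1 shared region.

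Among factors of cell state, 9 of 24 pluripotency genes had a double-background region within 1 kb, namely Pou5f1, Sox2, Klf2, Klf4, Esrrb, Tfcp2l1, Tbx3, Utf1 and Tdgf1. In the list for formative and primed cells 1 of 18 did (Etv5), and of immediate early genes 3 of 18 (Fosb, Jund and Klf10). None of 24 lineage transcription factors had one, and only 2 of the 24 had a region of any kind in all 4 target lists within 1 kb, so few of them could have had one. The listed genes were spread unevenly over the control patterns. Among all 21887 protein-coding genes, 319 were listed. Of the 1163 genes at regions with a peak in knockout replicate 2 and both parental lists, 65 (5.59%) were listed, against 26 of 1007 (2.58%) where parental replicate 1 alone of the parental lists had a peak and 3 of 334 (0.898%) where both knockout lists had one.

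**Figure D4:**
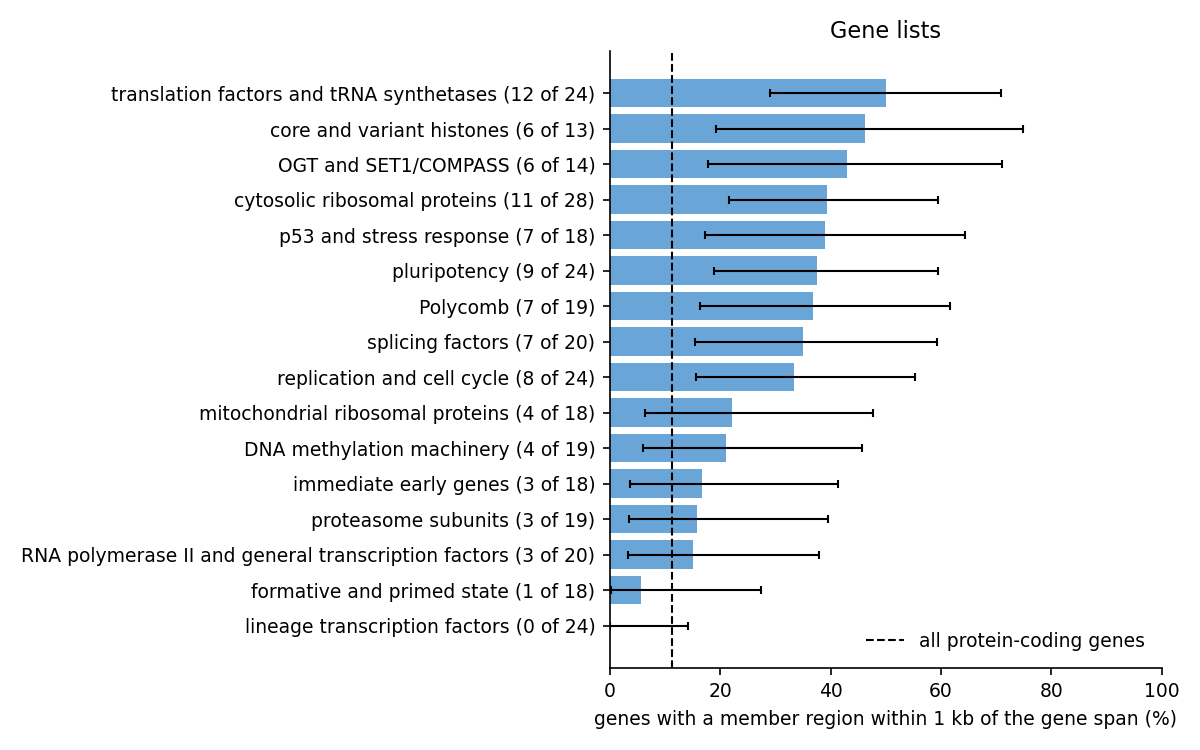
Share of the genes in each of 16 lists (%, x axis) with a double-background region within 1 kb of the gene span, with exact binomial 95% intervals; counts stand beside the names and the dashed line is the 11.3% of all protein-coding genes. Translation factors and tRNA synthetases (12 of 24) are at the top and lineage transcription factors (0 of 24) at the bottom.

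The fold enrichments below are the authors' values at the summit of the strongest peak in a region, and they belong to the peaks by which the regions were chosen, so they are described and not tested. Folds are ratios within a library and are not comparable as signal across lists of unknown depth. The regions leading in the target lists by mean within-list percentile of −log10 q were mostly far from promoters. Of the 10 leading regions, 8 were over 1 kb from a gene end. The foremost lay 54.9 kb from Ccna1, the gene of a germ cell cyclin, on chromosome 3 (54989555 to 54990570). Its folds were 34.3 and 19.2 in wild-type replicates and 6.09 in knockout replicate 2, and 49.0 and 34.6 in FLAG-TET2 against 10.2 and 8.83 in parental replicates. The knockout and parental folds were below all target folds there.

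A region inside Brd1, which encodes a bromodomain protein (on chromosome 15, 88708210 to 88710242), gave folds of 30.2 and 21.7 in wild-type and 6.51 in knockout replicate 2, and of 39.7 and 26.1 in FLAG-TET2 against 6.79 in parental replicate 1. A region inside Cacng7, a channel subunit gene (on chromosome 7, 3347921 to 3348350), gave folds of 36.6 and 20.3 in wild-type and 5.20 in knockout replicate 2, and of 44.4 and 23.0 in FLAG-TET2 against 6.18 in parental replicate 1. The others lay near Tmprss11a, Tmem220, Zbtb44 and Elobl, inside Akap12, a kinase scaffold gene, and Mterf1a, a mitochondrial factor gene, and at Acp6, a phosphatase gene. These regions were picked for high ranks in the target lists, so their high target folds follow from the choice. The highest control fold among them was in the region 13.1 kb from Tmem220 (chromosome 11, 67011619 to 67012067). There the folds were 25.8 and 22.3 in wild-type and 6.35 in knockout replicate 2, and 37.9 and 23.9 in FLAG-TET2 against 27.8 and 15.6 in parental replicates.

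Of the 5 regions leading in the control lists, 3 had their highest folds in the FLAG resin libraries, with and without the tag. A region inside Adgrb3, an adhesion receptor gene (chromosome 1, 25228379 to 25228964), had folds of 69.7 and 46.5 in FLAG-TET2 against 65.8 and 45.8 in parental replicates, and of 7.69 and 6.97 in wild-type against 14.2 in knockout replicate 2. A region 108 kb from Terf2ip (chromosome 8, 112128561 to 112129248) had folds of 73.5 and 50.4 in FLAG-TET2 against 72.3 and 53.8 in parental replicates, and of 9.95 and 7.18 in wild-type against 12.2 in knockout replicate 2. In both the folds were of like size with and without the tag. Another region of this kind lay at an end of Exoc3l, with folds of 26.6 and 20.0 in FLAG-TET2 against 30.6 and 21.9 in parental replicates, and of 5.80 and 6.26 in wild-type against 7.42 in knockout replicate 2.

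The remaining regions had peaks in both knockout lists. At Clk4, which encodes a kinase of splicing factors, and BC049762 (chromosome 11, 51262640 to 51263733), the folds were 22.1 and 13.5 in wild-type against 19.9 and 27.3 in knockout replicates, and 11 and 5.49 in FLAG-TET2 against 12.7 in parental replicate 1. At Mga, which encodes a partner of MAX (chromosome 2, 119872355 to 119873671), they were 17.9 and 9.16 in wild-type against 11.4 and 13.4 in knockout replicates, and 6.04 and 5.67 in FLAG-TET2 against 13.1 in parental replicate 1. The knockout folds at both genes overlapped the wild-type ones, and the parental fold at Mga lay among them too. Summits at Clk4, relative to that of wild-type replicate 1, were at 80.0 and 89.0 bp in knockout replicates. They were at 424 and 198 bp in FLAG-TET2 replicates and 430 bp in parental replicate 1. At Mga they were at -39.0 and -57.0 bp in knockout, -55.0 and -157 bp in FLAG-TET2 and -172 bp in parental replicate 1.

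**Figure D5:**
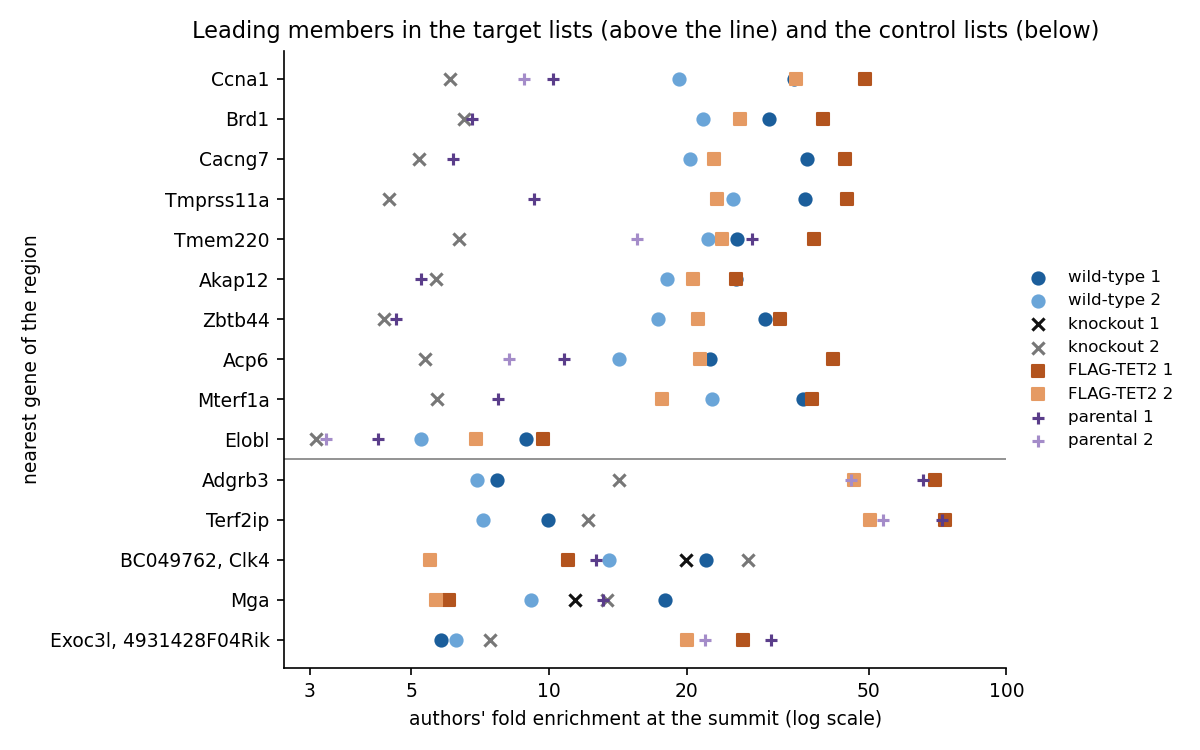
Authors' fold enrichment (x axis, log scale) in each library with a peak, for the 10 double-background regions that lead the target lists (above the line) and the 5 that lead the control lists (below), named by the nearest gene. Above the line, where the choice favours high target folds, the parental folds near Tmem220 reach 27.8, and below it parental folds at Adgrb3 and Terf2ip lie beside FLAG-TET2 folds.

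At the promoters of 4 of the printed genes target and control folds lay closer together. At Eif4g1 the folds were 15.1 and 9.96 in wild-type and 6.16 in knockout replicate 2, and 15.3 and 11.2 in FLAG-TET2 against 7.40 and 7.69 in parental replicates. At Mtf2 they were 15.6 and 8.84 in wild-type and 8.08 in knockout replicate 2, and 15.2 and 10.6 in FLAG-TET2 against 11.6 and 8.48 in parental replicates. The groups did not overlap at Eif4g1 and overlapped at Mtf2 between FLAG-TET2 and parental cells. At Polr2a the folds were 10.5 and 6.63 in wild-type and 6.66 in knockout replicate 2, and 12 and 7.70 in FLAG-TET2 against 11 and 7.22 in parental replicates. The groups overlapped in both pairs. At Mrpl9 they were 9.97 and 5.97 in wild-type and 8.84 in knockout replicate 2, and 10.2 and 9.11 in FLAG-TET2 against 12.7 and 4.08 in parental replicates, and the groups overlapped in both pairs there as well.

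Among pluripotency genes, the 2 regions leading by mean percentile in the target lists are given. They were picked by that rank, so their high target folds follow from the choice. The region inside Tfcp2l1, which encodes a transcription factor of naive cells (chromosome 1, 118647908 to 118648425), gave folds of 32.8 and 16.2 in wild-type and 6.01 in knockout replicate 2, and of 32.6 and 15.5 in FLAG-TET2 against 7.59 in parental replicate 1. The region 0.551 kb outside Pou5f1, the gene of OCT4 (chromosome 17, 35503792 to 35505481), gave folds of 28.9 and 18.1 in wild-type and 6.27 in knockout replicate 2, and of 24.3 and 11 in FLAG-TET2 against 5.84 in parental replicate 1. Both had a control peak in the longer control lists alone, with folds below all 4 target folds. The single such region in Tet2 (chromosome 3, 133524447 to 133525279), 1 of 14 merged regions within 1 kb of the gene, gave folds of 14.1 and 8 in wild-type and 8.08 in knockout replicate 2, and of 20.2 and 12.4 in FLAG-TET2 against 5.98 in parental replicate 1. The knockout replicate 2 fold lay between the wild-type ones.

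A peak in all 4 target lists was required, which favours high ranks, so ranks are given as a description. The median within-list percentile of −log10 q was 78.7 and 61.4 in wild-type replicates and 77.9 and 53.5 in FLAG-TET2 replicates. It was 54.6 and 46.2 in knockout replicates and 56.6 and 36.4 in parental replicates. In wild-type replicate 1, beside the 78.7 of double-background regions, it was 84.1 for common TET2 regions and 89.0 for regions in all 8 lists. With a knockout but no parental peak it was 88.4, and with a parental but no knockout peak 73.1. In wild-type replicate 2 common TET2 regions, at 62.3, were near the 61.4 of double-background regions. In wild-type replicate 1 regions within 1 kb of a start site had a lower median percentile than the other regions (75.8 against 82.7), and in parental replicate 1 a higher one (60.7 against 48.3). Regions just inside the rule, with a −log10 q of 2.03 in their weakest deciding list, lay at Ankib1 and Krit1, Mob3b, Ap3b2 and Gcsh. In these 4 the weakest deciding peak was that of wild-type replicate 2.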

How the data were processed

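Peak lists of 8 ChIP-seq libraries, 2 in each of 4 groups, were analysed. Input and IgG samples came with no list and are not analysed here. Tools listed in the submitters' processing notes, with no version or role, are MACS2, Bowtie2, Trimmomatic, DESeq2 and DiffBind, and the build is mm10. The authors called peaks in each library separately, since each deposited list holds the peaks of 1 library. The deposited lists give for each peak a score, the fold enrichment at the summit (a linear ratio), −log10 p and −log10 q values, and a summit offset. These are the authors' own values and served to describe peaks and to order or select them within a list. Folds of different lists are set side by side only as a description. Read depth is not given in the sources used here, and no count test could be run.

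Peaks that overlapped by 1 bp or more were merged on 21 chromosomes, and 2 to 34 peaks per list elsewhere were left out. In each region and list the strongest peak by −log10 q gave the summit. Gene spans and 300 base promoters came from RefSeq tables (GRCm38.p6). All 319 listed symbols matched. No genome sequence was used, so region sequences are not shown. Shares have exact binomial 95% intervals and differences Newcombe intervals, over regions, which are not replicates. Library medians were compared by exact permutation. The steps were tested on simulated peaks. Python 3.11.15, pandas 2.3.3, NumPy 2.4.6 and SciPy 1.17.1 were used.

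Named regions were the 10 leading in target lists and the 5 leading in control lists by mean within-list percentile, up to 2 per gene list and per control pattern, the 5 weakest by the rule, those of Tet2 and those of the genes with most members. A part of these is described, and some are not reported here. The members and gene lists were chosen with earlier results of these data known.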

Additional observations from a re-analysis of the deposited data

How the results depend on the processing

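The number of double-background regions depended on the settings and on the control lists. It was 1274 with a −log10 q of at least 5, 1469 with 200 bp summit windows and 0 with the 2259 leading peaks of each list, a setting that therefore gave no other value. Leaving out each library in turn gave 319 to 2989 regions, with 319 without knockout replicate 2, 1057 without parental replicate 1 and 1386 without knockout replicate 1. Regions in all 7 remaining lists are then left out too. Without knockout replicate 1 this took out the 1051 regions with a peak in knockout replicate 2 and both parental lists, so values without it cover other regions. The share at gene ends was 69.6% with summit windows, 69.3% and 77.9% with limits of 500 bp and 2 kb, 68.7% with the wild-type replicate 1 summit in place of the region, and 67.0 to 79.9% with a library left out. Its difference from common TET2 regions was 55.1 points with summit windows, 60.4 with that summit, and 54.9 to 67.5 with a library left out. The share of listed genes was 17.2% with the stricter threshold, 15.4% with summit windows, and 0.940 to 31.3% with a library left out, where it was lowest without knockout replicate 2 and 9.09% without knockout replicate 1. The summit distance between reagents exceeded that within a reagent by 57.3 bp with summit windows, 34.1 bp in members at most 700 bp wide, and 44.9 to 131 bp with a library left out. The summit position differed between reagents by -55.1 bp in members at most 700 bp wide (exact permutation p = 0.0857, n = 4 each), and by -167 to -130 bp with a library left out. Without any 1 of the control lists a second library held fewer than 20 regions and was dropped, and the p of 0.100 is then the smallest that 3 against 3 libraries allow. Apart from the regions and libraries that drop out by the rule, the causes of these shifts were not tested. No value changed sign. The 700 bp limit, the summit placement and the nearest-summit distance were chosen after seeing the data. With the replicate number as a block, the summit position differed by -164 bp (exact permutation p = 0.0556, the smallest that labels permuted within a number allow, n = 4 each). Correlations between groups of replicate differences across regions were -0.0172 to 0.0833, and knockout against parental had 0 regions for one. They compare single regions and cannot tell whether libraries of the same number share a batch. The block, too, was chosen after seeing the data.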

Other observations

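Double-background regions were rare on the X chromosome. Of the 78 regions on X in all 4 target lists, 1 (1.28%, exact binomial 95% interval 0.0325 to 6.94%) was of this kind, while 62 were common TET2 regions. The other classes with a knockout peak were rare there too. On X, 14 regions had a parental but no knockout peak, 1 a knockout but no parental peak and 0 a peak in all 8 lists. On the autosomes the share was 20.5% (2431 of 11857), with a range from 17.7% on chromosome 8 to 25.1% on chromosome 13. On the Y chromosome 6 of 7 such regions were of this kind, all between positions 90799249 and 90809652. The promoter density of the chromosomes was not taken into account.

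Double-background regions also lay at genes for short RNAs. Of the 2438 regions, 47 (1.93%) were within 1 kb of a tRNA gene, 32 of them away from the ends of protein-coding genes, against 4 of 4521 common TET2 regions (0.0885%). Of the 408 tRNA genes in the RefSeq table, 81 (19.9%) had such a region within 1 kb. For snoRNA genes the shares were 1.07% of double-background regions and 0.0221% of common TET2 regions, and for snRNA genes 0.738% and 0.0442%. For lncRNA genes they were 17.8% and 14.3%, a smaller gap. Short RNA genes often stand in clusters, and many snoRNA genes lie inside protein-coding genes, so the counts of genes are not independent.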
